A study of Mus musculus with 6 samples.

Results

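The p200 family is a cluster of interferon-inducible mouse genes whose proteins recognise DNA. Its members were chosen by gene symbol, with their counts in non-responsive and responsive bladder tumours already known, so every difference between the groups given for a member is a description and carries no test. Of the 8 symbols, Aim2, Ifi203, Ifi204, Ifi205, Ifi207, Ifi209 and Mndal were found, which are 7 of the 22063 genes of the table. The symbol Mnda was not found, and RefSeq lists it as a synonym of Ifi211. Ifi211, Ifi202b, Ifi206, Ifi208, Ifi213 and Ifi214, the other p200 genes of the table, were taken from a list of the family and not from the rule. All 7 members passed the filter on low counts, and so did 5 of these 6, with Ifi214 below it.

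RNA was sequenced from 6 bladder tumours of female mice, in a model in which bladder cancer arises spontaneously in animals with an intact immune system. The 3 non-responsive and the 3 responsive tumours had all received an anti-PD-1 antibody, which blocks an inhibitory receptor of T cells, and no tumour without the antibody was analysed. How the tumours were induced, the mouse strain, the animals' age, the time of sampling and the measure of response were left unstated by the labels. These do not say whether each tumour came from its own animal, so a p-value here reflects variation among these samples, part of which may be technical.

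Proteins of this family typically carry a pyrin domain at one end, which binds other pyrin domains, and a HIN domain at the other, which grips the backbone of double-stranded DNA. AIM2, the best understood of them, senses DNA in the cytosol and joins the adaptor ASC to form an inflammasome, which activates caspase-1 and so the release of interleukin-1 beta and interleukin-18. IFI204, the mouse protein most often compared with human IFI16, is linked to the STING pathway, through which cytosolic DNA induces type I interferon. Interferon in turn raises transcription of many p200 genes, in leukocytes above all, through a promoter sequence called the interferon-stimulated response element (ISRE).

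The 13 p200 genes lay side by side within 680.932 kb of chromosome 1 (mm10, 173350879 to 174031810), with Aim2 at one end and Ifi205 at the other, by GENCODE annotation of that build. Promoter sequences from RefSeq (GRCm38.p6, 250 bases before to 50 after a transcript start) were found for 12 of the 13, all but Ifi204. An ISRE core, spelled GAAANNGAAA and searched on both strands, was present in promoters of 9 of these 12 genes. Counted by promoter entry it was present in 10 of 14, against 3.44% of all 32851 promoters of the same length. A match to these letters is a description of the sequence and not evidence that a factor binds there. The version GAAATCGAAA, singled out after the matches were seen, stood in 7 of the family's genes and in 16 of all 27025 genes with a promoter entry. The 50 bases around the core are printed because they divide the family into promoter types that can be set beside the expression values. Capitals mark the core, and each stretch is read 5′ to 3′ on the gene's own strand.

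Ifi206 (chr1:173491329-173491378, minus strand): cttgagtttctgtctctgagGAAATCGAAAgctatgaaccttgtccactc
Ifi208 (chr1:173673587-173673636, plus strand): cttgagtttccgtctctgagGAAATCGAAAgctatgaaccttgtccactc
Ifi213 (chr1:173599316-173599365, minus strand): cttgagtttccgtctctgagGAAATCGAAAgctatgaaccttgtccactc
Ifi214 (chr1:173536007-173536056, minus strand): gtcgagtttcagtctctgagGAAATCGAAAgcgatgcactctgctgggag
Ifi203 (chr1:173942498-173942547, minus strand): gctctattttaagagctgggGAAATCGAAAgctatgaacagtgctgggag
Mndal (chr1:173880194-173880243, minus strand): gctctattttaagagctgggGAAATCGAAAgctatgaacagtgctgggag
Ifi207 (chr1:173741821-173741870, minus strand): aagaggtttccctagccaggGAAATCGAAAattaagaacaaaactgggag
Ifi205 (chr1:174031860-174031909, minus strand): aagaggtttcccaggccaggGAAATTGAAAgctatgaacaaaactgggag
Ifi211 (chr1:173913054-173913103, minus strand): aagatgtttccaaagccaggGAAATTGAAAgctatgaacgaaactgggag

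The Mndal stretch lies at its RefSeq start, inside the longer GENCODE span of the gene. The stretches of Ifi208 and Ifi213 were identical, and that of Ifi206 differed from them by 1 base of 50. Those of Ifi203 and Mndal were also identical to each other. Ifi205 differed by 4 bases from Ifi211 and by 6 from Ifi207. In 8 of these 9 genes the core began between positions -79 and -35 from the transcript start, and in Ifi205 at -134. On the other strand a further match began at position 24 in Ifi205 and, at another RefSeq start of Mndal, at -54. No match was found in the windows of Aim2, Ifi209 and Ifi202b, or at another RefSeq start of Ifi203.

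Because these genes arose by duplication, some reads cannot be assigned to one of them. In Aim2 and Ifi202b none of the 50-base windows of the annotated transcripts occurred in another p200 gene, and their deposited counts were whole numbers in all 6 tumours. In Ifi203 and Ifi207 the share of such windows was 3.87% and 4.46%. It was 17.3% in Mndal, 18.6% in Ifi205, 19.1% in Ifi204 and 33.4% in Ifi209, and these 4 genes had counts that were not whole in all 6 tumours. Among the other p200 genes it was 15.8% in Ifi206, 15.6% in Ifi213 and 20.8% in Ifi208, which shared windows mainly with each other, and 72.8% in Ifi211. Counts were not whole in 3 tumours for Ifi206 and Ifi208, in 1 for Ifi213 and in all 6 for Ifi211. The annotated span of Mndal also covers Ifi211 whole and 22.09 kb of Ifi203 on the same strand. The labels do not state how such reads were divided, so levels of these genes are uncertain where they share sequence.

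Total counts were 15046180 to 23917398 per tumour, at which 3 counts, the limit that a count of 0 allows, equal 0.125 to 0.199 CPM, the count scaled to library size, for counting error only. Over the whole table edgeR's quasi-likelihood test called 0 of 14505 genes at an adjusted p of 5% (0%), with 1825 at an unadjusted p under 0.05. DESeq2 called 440 of the 15352 genes to which it gave an adjusted p (2.87%), 212 higher and 228 lower in non-responsive tumours. Urothelial markers, from keratins to uroplakins, summed to 1792 to 9840 CPM, and none was at 0 in any tumour. The sum does not separate uroplakins from keratins, so by itself it does not show bladder tissue. CPM values below are scaled by TMM, and log2 fold changes are non-responsive minus responsive with their standard error.

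The members lay on both sides of 0 between the groups. The log2 fold change was above 0 for 5 of 7 members, with a median of 0.52, against 50.99% above 0 and a median of 0.014 over all genes tested. The median was 0.22 when non-responsive replicate 2 was left out, 0.34 when responsive replicate 3 was, and 0.80 when responsive replicate 2 was. For Ifi203, Ifi204 and Ifi207 all 3 non-responsive values lay above all 3 responsive ones, as was the case for 9.58% of all genes, and for no member did they lie below, against 8.08% of all genes. Nothing is read from these counts, since the members were chosen on this contrast. In bulk tumour RNA, more cells of a type and more RNA per cell cannot be told apart.

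**Figure D1:**
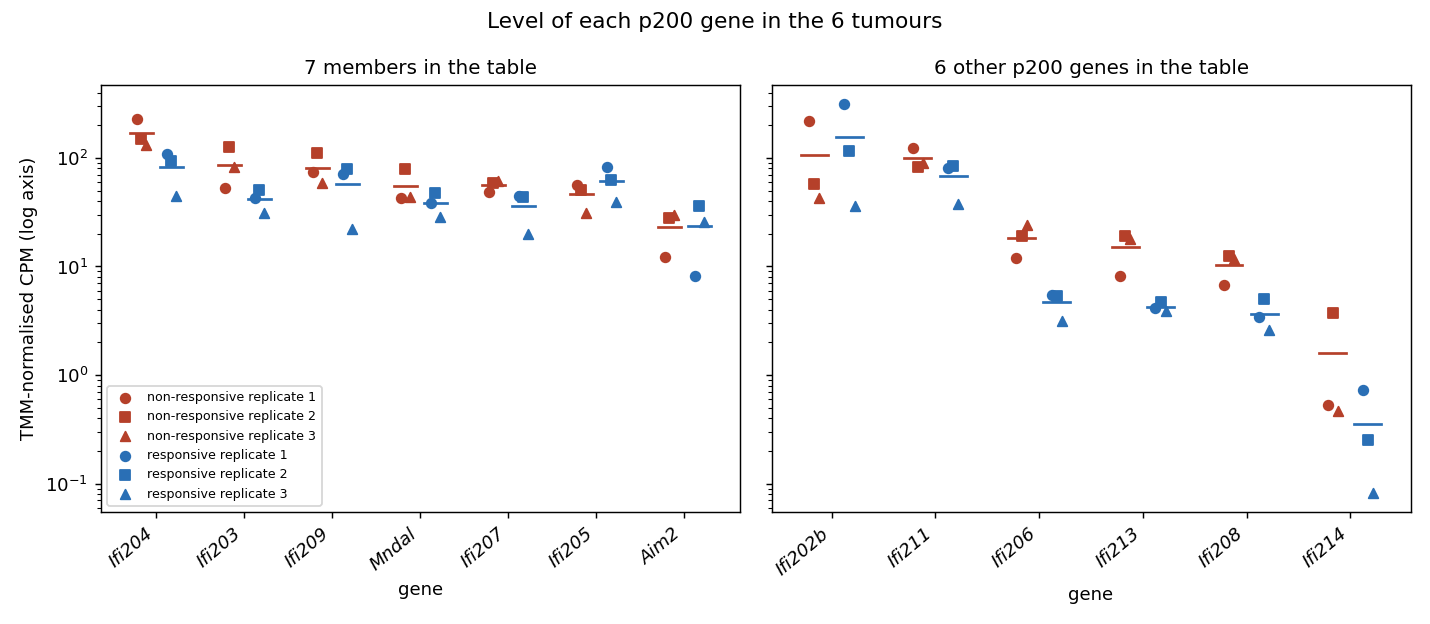
Level of each p200 gene per tumour, as TMM-normalised CPM on a log axis, for the 7 members (left) and the 6 other genes of the family (right). Each point is a tumour, and horizontal lines are group means. Responsive replicate 3 (blue triangle) is the lowest point for Ifi203, Ifi204, Ifi207, Ifi209 and Mndal. Ifi203, Ifi204, Ifi207, Ifi206, Ifi208 and Ifi213 have all non-responsive points above all responsive ones, as do 9.58% of all genes tested.

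AIM2 is the inflammasome sensor of the family. Aim2 (chromosome 1, 173350879 to 173466040) had 12.3, 28.03 and 29.5 CPM in the non-responsive tumours, given here and below in the order of replicates 1, 2 and 3. The responsive tumours had 8.23, 36.2 and 25.8 CPM. Replicate 1 of each group was low and the others were high, so the groups overlapped over nearly their whole range. Their means were 23.3 ± 9.53 and 23.4 ± 14.2 CPM (SD, n = 3), a log2 fold change of -0.0039 ± 0.56. Its sign changed with the tumours included, between -0.41 without responsive replicate 1 and 0.45 without responsive replicate 2.

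IFI204 is the member linked to STING signalling and to macrophage differentiation. Ifi204 (173747293 to 173766943) was at 230.5, 148 and 131 CPM in non-responsive tumours against 108, 93.9 and 44.3 CPM in responsive ones. All non-responsive values lay above the responsive ones, with non-responsive replicate 1 highest and responsive replicate 3 lowest. The means were 170 ± 53.3 and 82.1 ± 33.4 CPM (SD, n = 3) and the log2 fold change was 1.05 ± 0.38, a 2.07-fold difference, and 0.75 to 1.30 under the alternatives tried.

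IFI203 and MNDAL are nuclear p200 proteins, and their genes have the identical promoter stretch printed above. Ifi203 (173920407 to 173942672) was at 52.4, 126 and 82.6 CPM in non-responsive tumours against 43.2, 50.9 and 31.1 CPM in responsive ones. The groups did not overlap, but non-responsive replicate 1 lay just above responsive replicate 2. The log2 fold change was 1.06 ± 0.35. Mndal (173849126 to 173942491) was at 43.1, 78.7 and 43.4 CPM against 38.7, 48.0 and 28.8 CPM. Here the groups overlapped, and non-responsive replicate 2 alone stood above the rest. Its log2 fold change was 0.52 ± 0.32, 0.19 without that tumour and 0.34 without responsive replicate 3.

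IFI207 and IFI209 are less studied members. Ifi207 (173723427 to 173741747) was at 48.7, 59.0 and 61.6 CPM in non-responsive tumours against 44.6, 43.4 and 20.03 CPM in responsive ones, a log2 fold change of 0.65 ± 0.32. Responsive replicate 3 was the low value, and without it the difference was 0.36. Ifi209 (173630917 to 173647928) was at 74.0, 110 and 58.4 CPM against 70.6, 79.7 and 22.3 CPM. The groups overlapped, and its log2 fold change of 0.49 ± 0.48 was 0.10 when responsive replicate 3 was left out, 0.22 when non-responsive replicate 2 was, and 0.80 when responsive replicate 2 was.

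IFI205 is a macrophage-associated p200 protein. Ifi205 (174011998 to 174031810) was the member with the lowest log2 fold change, -0.41 ± 0.33. It was at 56.7, 50.2 and 31.4 CPM in non-responsive tumours against 82.0, 62.6 and 39.4 CPM in responsive ones. Responsive replicate 1 was highest, and the groups overlapped. The difference was -0.15 when responsive replicate 1 was left out, -0.20 when non-responsive replicate 3 was, and -0.66 when responsive replicate 3 was.

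Among the 12 p200 genes that passed the filter on low counts, the largest differences were in 3 genes outside the rule, Ifi206, Ifi208 and Ifi213. These genes have near-identical promoter stretches, and they lie near the Aim2 end of the cluster with Ifi214 and Ifi209 between them. Ifi203 and Mndal, with identical stretches, had log2 fold changes of 1.06 and 0.52. Ifi205 and Ifi211, whose stretches differ by 4 bases, had -0.41 and 0.56. Whether the promoter stretch bears on expression was not tested. Ifi208 and Ifi213 are listed by RefSeq under the synonyms Pydc3 and Pydc4, names that stand for a pyrin domain. The rule did not choose them, and they were tested with all other genes. The family was chosen with earlier results of these data known, so the p-values of these 3 genes are not free of that choice.

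Ifi206 (173468485 to 173491041) was at 11.9, 19.2 and 24.3 CPM in non-responsive tumours against 5.42, 5.40 and 3.17 CPM in responsive ones. The lowest non-responsive value was more than 2 times the highest responsive one. The means of 18.5 ± 6.26 and 4.66 ± 1.29 CPM (SD, n = 3) gave a log2 fold change of 1.99 ± 0.37, a 3.97-fold difference. It did not pass edgeR's test (adjusted p = 0.350, unadjusted p = 0.00103) and passed DESeq2's (adjusted p = 0.000602).

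Ifi213 (173566283 to 173599274) was at 8.15, 19.3 and 17.8 CPM against 4.11, 4.70 and 3.92 CPM, a log2 fold change of 1.83 ± 0.38 (edgeR adjusted p = 0.350, DESeq2 adjusted p = 0.00234). The 3 responsive values lay close together and below every non-responsive one. Ifi208 (173673675 to 173698395) was at 6.83, 12.6 and 11.7 CPM against 3.39, 5.01 and 2.60 CPM, a log2 fold change of 1.503 ± 0.40 (edgeR adjusted p = 0.350, DESeq2 adjusted p = 0.0245). In each of these genes non-responsive replicate 1 was the lowest of its group and responsive replicate 3 the lowest of all 6. Leaving out any single tumour kept all 3 log2 fold changes between 1.30 and 2.22, while over all alternatives the adjusted p ranged up to 0.632 and passed only with DESeq2. The genes share part of their transcript sequence, and so possibly reads, and are not taken as independent observations.

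The remaining p200 genes outside the rule did not separate the groups. Ifi211 (173896345 to 173913046) was at 125, 82.7 and 90.4 CPM against 81.3, 83.6 and 37.8 CPM (log2 fold change 0.56 ± 0.34, edgeR adjusted p = 0.487). Its difference was 0.27 when responsive replicate 3 was left out and 0.36 when non-responsive replicate 1 was. Ifi202b (173962568 to 173982744), whose product has HIN domains without a pyrin domain and is known as an antagonist of AIM2, was at 219, 57.2 and 42.7 CPM against 312, 117 and 36.4 CPM. It was high in replicate 1 of each group and varied 8.58-fold between tumours (log2 fold change -0.54 ± 0.87, edgeR adjusted p = 0.785). Without responsive replicate 1 its log2 fold change was 0.47, and without non-responsive replicate 1 it was -1.64. Ifi214, below the filter, had 64 counts in non-responsive replicate 2 and 2 to 16 in the other 5 tumours, and DESeq2 gave it a log2 fold change of 2.12 ± 1.14 (adjusted p = 0.354).

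**Figure D2:**
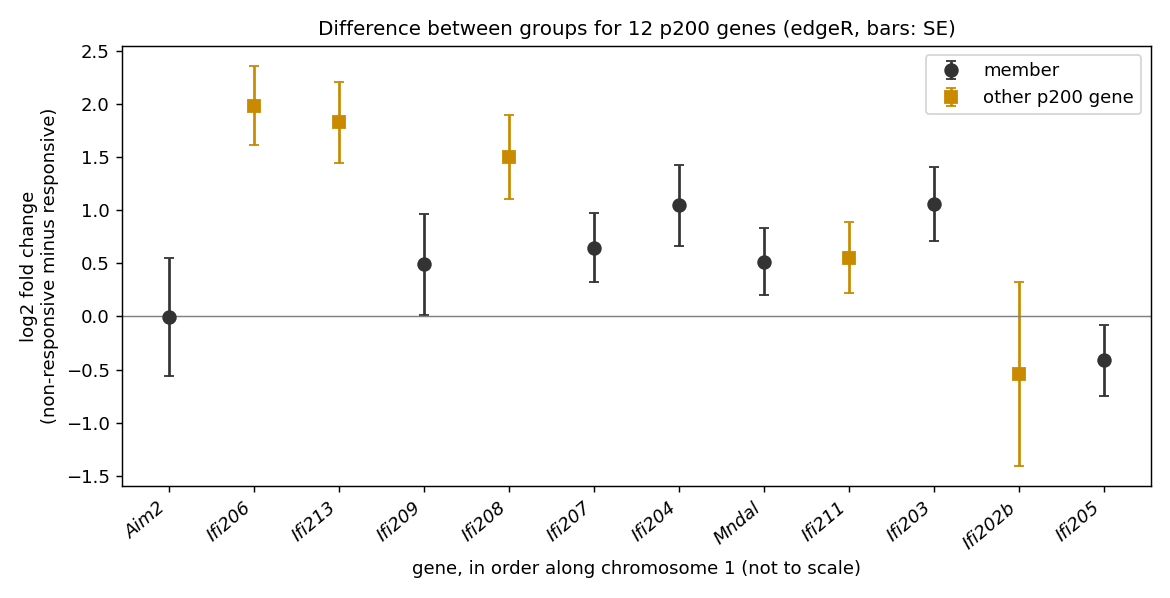
Log2 fold change (non-responsive minus responsive, edgeR) of the 12 p200 genes tested, in their order along chromosome 1 and not to scale, with bars for the SE. Ifi206, Ifi213 and Ifi208 lie at 1.99, 1.83 and 1.503, while Aim2 lies close to 0 and Ifi202b and Ifi205 lie below it.

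Compared per gene length, as FPKM, which is scaled for length and depth, Ifi202b and Ifi204 were the most abundant p200 RNAs. Their means over the 6 tumours were 73.7 and 54.4 FPKM, followed by Ifi211 at 46.4, Ifi205 at 32.9, Mndal at 25.9, Ifi209 at 21.3, Ifi203 at 19.5, Aim2 at 14.0 and Ifi207 at 13.7 FPKM. Ifi213, Ifi206 and Ifi208 followed at 5.04, 3.94 and 2.53 FPKM. The order differed between tumours, and ranges of neighbours overlapped, with Ifi202b between 21.7 and 175 FPKM and Ifi204 between 19.6 and 88.3 FPKM. Ifi208 and Ifi214 were ranked 12 and 13 in each tumour.

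The make-up of p200 RNA also differed between tumours. Ifi204 took 23.5, 18.5 and 20.7% of the family's summed FPKM in non-responsive tumours against 11.6, 13.8 and 13.4% in responsive ones. Ifi205 took 8.22, 8.92 and 7.10% against 12.6, 13.1 and 16.98%. The shares of these genes and of Ifi206 did not overlap between the groups, and those of the other 10 p200 genes did. In CPM, 9.58% of all genes tested lay higher and 8.08% lower in non-responsive tumours without overlap, and nothing is read from this count. Shares of a sum depend on each other, and Ifi205 itself overlapped in CPM. Ifi202b took 45.5% in responsive replicate 1 and 9.17% in non-responsive replicate 3. The summed FPKM of the 7 members was 191, 279 and 193 in non-responsive tumours against 162, 167 and 98.6 in responsive ones.

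**Figure D3:**
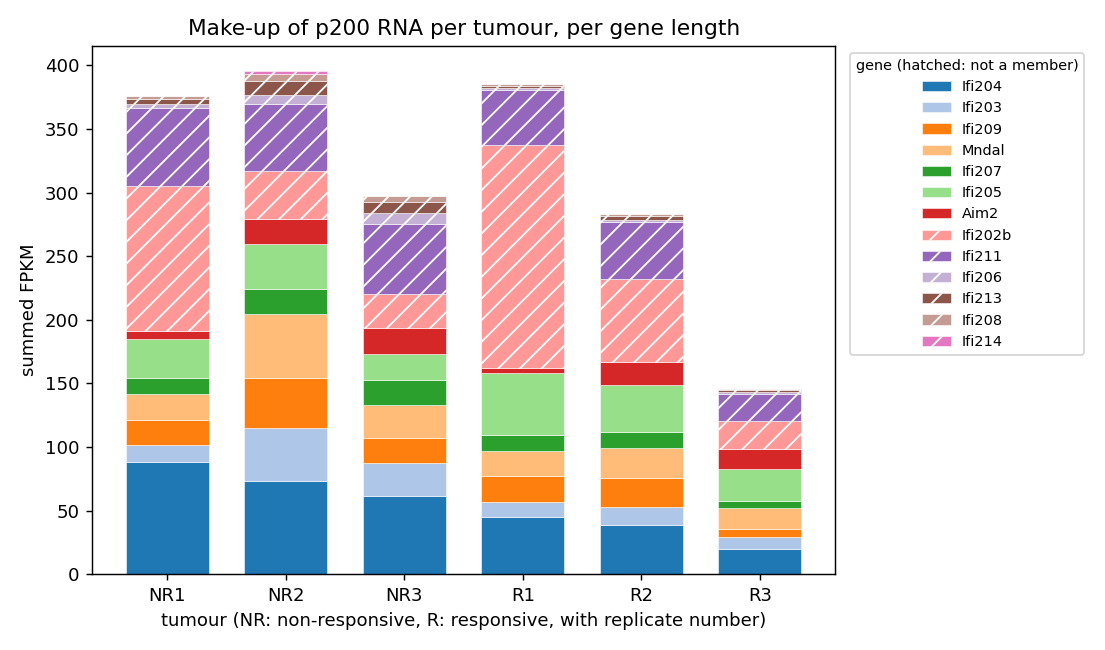
FPKM of the 13 p200 genes stacked for each tumour, with genes that are not members hatched. Responsive replicate 3 has the smallest total, and Ifi202b makes up the largest piece in replicate 1 of each group and in responsive replicate 2, with 45.5% in responsive replicate 1.

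p200 genes are expressed mainly in leukocytes, and leukocyte marker RNA differed between these tumours too. The 6 leukocyte markers, among them Ptprc, which encodes CD45, summed to 640, 1092 and 503 CPM in non-responsive tumours against 467, 549 and 272 CPM in responsive ones. All 6 had a log2 fold change above 0, with a median of 0.73, and none was at 0 in any tumour. The 7 members summed to 518, 600 and 438 CPM against 395, 415 and 212 CPM. The order of the tumours by both sums was alike at its ends, with non-responsive replicate 2 highest and responsive replicate 3 lowest. Per 100 CPM of leukocyte markers the members stood at 80.9, 54.9 and 86.9 CPM in non-responsive tumours against 84.6, 75.6 and 78.0 CPM in responsive ones, and on this scale the groups overlapped. Per 100 CPM of the 14 macrophage and monocyte markers they stood at 21.2, 15.5 and 18.3 against 13, 16.2 and 16.2 CPM, which also overlapped.

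For Ifi206, Ifi208 and Ifi213, summed together after their values were seen, the sums were 26.8, 51.1 and 53.8 CPM in non-responsive tumours against 12.9, 15.1 and 9.69 CPM in responsive ones. Per 100 CPM of leukocyte markers they stood at 4.20, 4.68 and 10.7 against 2.77, 2.75 and 3.57 CPM, and per 100 CPM of macrophage and monocyte markers at 1.10, 1.32 and 2.25 against 0.425, 0.591 and 0.742 CPM. On both scales each non-responsive tumour lay above each responsive one. These genes already separated the groups in CPM when they were summed, so nothing is read from this. Non-responsive replicates 2 and 3 had nearly equal sums of these genes at leukocyte marker sums of 1092 and 503 CPM. Over the tumours, Pearson r of their mean pattern with the mean centred log2 CPM of markers was 0.67 for leukocytes and 0.81 for macrophages and monocytes. It was 0.86 for endothelium, 0.79 for fibroblasts and -0.87 for urothelium. For T cells, B cells, neutrophils and dendritic cells it was 0.65, 0.69, 0.49 and 0.42. The part of cell content in these differences was not tested.

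**Figure D4:**
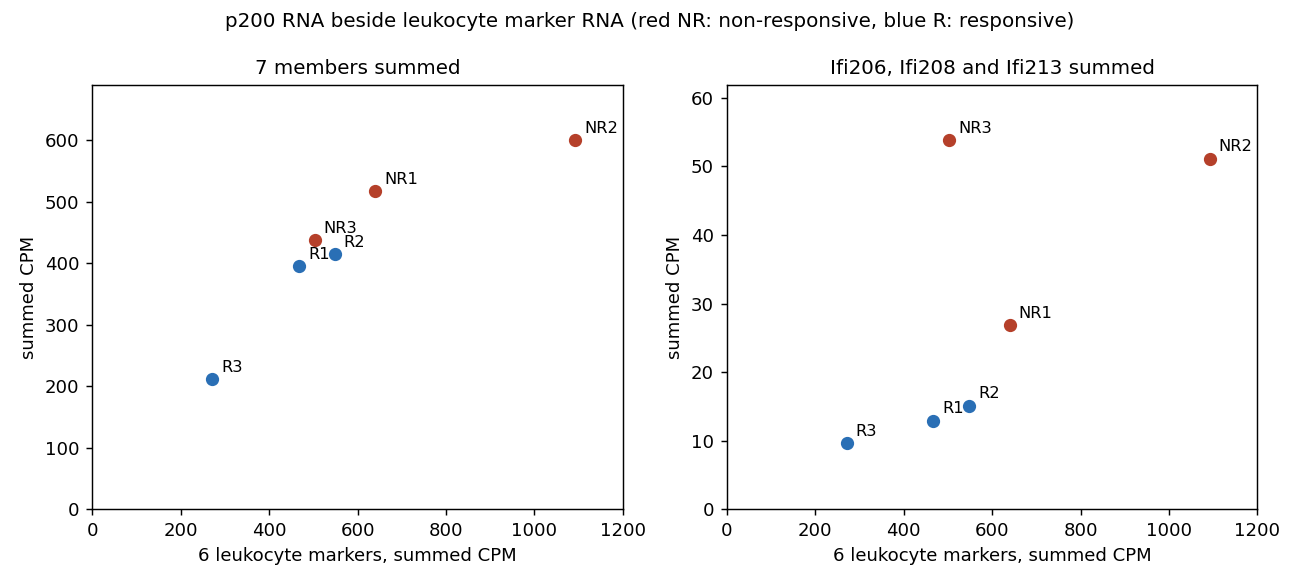
Summed CPM of the 7 members (left) and of Ifi206, Ifi208 and Ifi213 (right) against the summed CPM of 6 leukocyte markers, 1 point per tumour. On the left non-responsive replicate 2 is highest on both axes and responsive replicate 3 lowest. On the right non-responsive replicate 3 is highest at 53.8 CPM, with non-responsive replicate 2 next at 51.1 CPM and responsive replicate 3 lowest.

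Markers of other cell types are given beside these values. Macrophage and monocyte markers had 13 of 14 log2 fold changes above 0 (median 0.51, sums of 2394 to 3872 CPM in non-responsive tumours against 1305 to 3039 CPM in responsive ones). All 10 T cell markers were above 0 (median 1.42), but the sum was 172 CPM in non-responsive replicate 2 and 25.1 to 39.2 CPM in the other tumours. All 6 endothelial markers were above 0 (median 1.16, sums of 273 to 973 CPM against 224 to 357 CPM), and non-responsive replicate 1 was within the responsive range there. B cell markers had 6 of 6 above 0 (median 1.25) and dendritic cell markers 6 of 8 (median 0.89), but in both lists non-responsive replicate 2 alone stood apart, at sums of 66.2 and 194 CPM beside 12.6 to 21.0 and 35.4 to 64.8 CPM in the other tumours. Neutrophil markers had 7 of 7 above 0 (median 0.98), with overlapping sums of 292 to 812 CPM against 85.1 to 594 CPM. Fibroblast markers had 5 of 7 above 0 (median 0.61), with overlapping sums of 5439 to 6906 CPM against 4431 to 5592 CPM. Urothelial markers had 4 of 10 above 0 and a median of -2.13, with sums of 1792 to 9840 CPM in non-responsive and 3932 to 5524 CPM in responsive tumours. No marker of these lists was at 0 in any tumour. Their part in the p200 differences was not tested.

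Among 10534 genes with an average log2 CPM of at least 3, those whose level most resembled the mean pattern of the 7 members over the 6 tumours were Slc11a1, Il1rap, Cd300a, Arl11, Clec5a, Inpp5d, Sirpb1c, Adgre1, Trim59 and Cd84, with Pearson r of 0.978 to 0.994 over 6 tumours that share libraries. Slc11a1 encodes a metal transporter of phagosomes, Clec5a a myeloid lectin receptor and Adgre1 the macrophage antigen F4/80. Slc11a1 was at 30.8, 49.8 and 28.8 CPM in non-responsive tumours against 22.0, 32.3 and 12.9 CPM in responsive ones. The members were left out of this ranking, as were genes below that level, and no other p200 gene was among the 10. The choice depended on single tumours, with 0 of the 10 remaining among the top 10 without responsive replicate 2, 1 without responsive replicate 3, and 5 or 6 without each of the others.

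Genes of inflammasomes and pyroptosis, a list wider than the inflammasome that AIM2 assembles, lay on both sides of 0. Of 16 genes tested, 9 were above 0, with a median of 0.037 that ran from -0.11 without responsive replicate 1 to 0.27 without non-responsive replicate 3 and was also below 0 without non-responsive replicate 1 or 2, and edgeR and DESeq2 called 0, with 1 at an unadjusted p under 0.05 by edgeR. Pycard, encoding ASC, was at 114, 50.5 and 58.5 CPM in non-responsive tumours against 38.9, 93.2 and 95.1 CPM in responsive ones, with groups that overlapped (log2 fold change -0.024 ± 0.44). Casp1, encoding caspase-1, was at 38.7, 40.1 and 17.4 against 20.8, 22.1 and 7.95 CPM (0.92 ± 0.47, edgeR adjusted p = 0.438). Gsdmd, the pore former of pyroptosis, differed by 0.069 ± 0.26, Casp4 by 0.0058 ± 0.41 and Nlrp3, another inflammasome sensor, by 0.12 ± 0.71.

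The genes of the cytokines that caspase-1 processes had log2 fold changes below 0, but that of Il1b was smaller than its standard error. Il18 was at 20.2, 25.6 and 11.2 CPM in non-responsive tumours against 25.7, 65.3 and 46.0 CPM in responsive ones, a log2 fold change of -1.27 ± 0.43 (edgeR adjusted p = 0.364, unadjusted p = 0.0203). The groups did not overlap, but non-responsive replicate 2 and responsive replicate 1 were nearly level. Il1b was at 235, 119 and 54.0 CPM in the non-responsive and 79.4, 389 and 44.6 CPM in the responsive tumours (-0.33 ± 0.85). The groups overlapped. Responsive replicate 2 was the highest of all, while the other responsive values lay below non-responsive replicates 1 and 2, so no direction is read for Il1b.

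Genes of cytosolic nucleic acid sensing had 12 of 17 log2 fold changes above 0 and a median of 0.23, and none was called by edgeR or DESeq2 (3 at an unadjusted p under 0.05 by edgeR). Cgas, encoding the DNA sensor that makes the messenger of STING, was at 7.09, 12.1 and 12.3 CPM against 5.78, 7.43 and 6.47 CPM (0.68 ± 0.32, edgeR adjusted p = 0.416). Non-responsive replicate 1 was within the responsive range and the other non-responsive tumours were above it. Sting1 differed by 0.45 ± 0.32 and its kinase gene Tbk1 by 0.14 ± 0.18. Irf3, the transcription factor downstream, differed by -0.18 ± 0.17 and Irf7 by -0.26 ± 0.35. Zbp1, a sensor of Z-form nucleic acid, differed by 0.40 ± 0.32 and the exonuclease gene Trex1 by -0.11 ± 0.22.

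The 3 interferon genes on the list, Ifnb1, Ifng and Ifnk, were below the filter on low counts. Ifnb1 had 2 counts in non-responsive replicate 2 and 0 in the other 5 tumours, and Ifng had 6, 22 and 12 counts in non-responsive tumours against 0, 5 and 2 in responsive ones. Ifnk had 9, 0 and 0 counts against 11, 7 and 0. Of 17 tested genes for interferon ligands, receptors and signalling, 14 were above 0, with a median of 0.26, and 0 were called by edgeR or DESeq2 (3 at an unadjusted p under 0.05 by edgeR). Without non-responsive replicate 2 the median was 0.027. The receptor gene Ifnar1 was at 57.5, 117 and 92.3 CPM against 50.1, 50.3 and 52.4 CPM (0.80 ± 0.27, edgeR adjusted p = 0.364), and every non-responsive value was higher. Ifngr1 differed by 0.30 ± 0.29, and the transcription factor genes Stat2, Irf9, Irf1 and Irf8 by 0.45 ± 0.27, -0.060 ± 0.22, 0.51 ± 0.28 and 0.70 ± 0.37.

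Other interferon-stimulated genes, many of which are known to carry an ISRE, also lay on both sides of 0. Of 21 genes tested, 12 were above 0 with a median of 0.057, which was -0.15 without responsive replicate 3, and 0 were called by edgeR or DESeq2 (2 at an unadjusted p under 0.05 by edgeR). Isg15, a ubiquitin-like protein, was at 82.9, 80.2 and 61.0 CPM in non-responsive tumours against 147, 130 and 43.9 CPM in responsive ones (-0.52 ± 0.43). Ifit1 and Ifit3, antiviral genes of the IFIT family, differed by -0.50 ± 0.36 and -0.20 ± 0.37. The antiviral genes Mx1, Oasl2 and Rsad2 differed by 0.057 ± 0.46, 0.12 ± 0.32 and 0.27 ± 0.59. The difference between this list and the p200 genes was not tested.

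**Figure D5:**
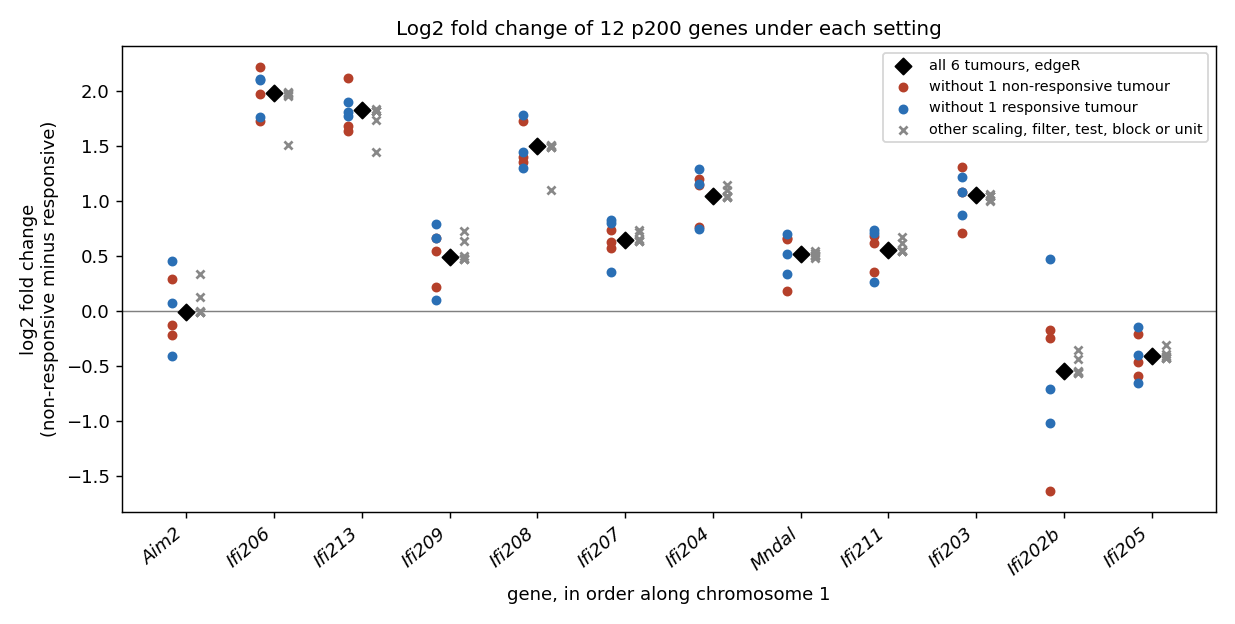
Log2 fold change of 12 p200 genes under each setting, with diamonds for edgeR on all 6 tumours, circles for fits without 1 tumour and crosses for other scaling, filters, tests, the replicate block or FPKM. Ifi206, Ifi213 and Ifi208 stay above 1 in each setting drawn, while Aim2 and Ifi202b lie on both sides of 0.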

How the data were processed

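The authors deposited estimated counts (expected counts) with matching FPKM for each gene in each tumour, per the file headers. The genome build was mm10 per the submitters' processing notes, and the library was made from total RNA with a TruSeq kit per the labels' protocols. The aligner, counting tool and strand setting were not given in the sources used. Counts, of which 8.19 to 9.99% per tumour were not whole, were rounded and fitted over all genes with edgeR 4.0.16 in R 4.3.3 (TMM, default filter, robust quasi-likelihood test, non-responsive minus responsive, Benjamini-Hochberg adjustment, two-sided). DESeq2 1.42.0 and limma 3.58.1 on log2(FPKM + 1) were alternatives. The edgeR and DESeq2 fits, but not limma, were run on simulated counts with the same dispersion for every gene. The check was on the median log2 fold change recovered, and does not address why these tests called different numbers of genes here. FPKM served to compare genes. All pairs of libraries differed by more than counting noise (smallest chi-square over its degrees of freedom 75.7).

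Members and lists were chosen with earlier results of these data known. All p200 genes and a fixed set of pathway genes, of which 1 is not reported here, are named, with the 10 genes most like the members by Pearson r of log2 CPM (prior count 2). Symbols Ddx58 and Mx2 were not found. Genes shown by count only were below the filter. How many of these 10 stay without each tumour was an alternative chosen after seeing the data. The other alternatives covered scaling, filters, test, unit, the replicate block and leaving out each tumour.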

Additional observations from a re-analysis of the deposited data

How the results depend on the processing

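The median log2 fold change of the members stayed above 0 under all 13 alternatives (0.22 to 0.80), and 5 or 6 of the 7 members were above 0. Ifi203, Ifi204, Ifi207, Ifi209 and Mndal kept their sign throughout, and so did Ifi205. Aim2 changed sign: 0.0031 with at least 5 CPM in 3 tumours, 0.13 with the replicate block, 0.34 with limma on log2(FPKM + 1), and -0.41 to 0.45 when each tumour was left out. Ifi202b ran from -1.64 to 0.47 without single tumours. The inflammasome list median ran from -0.11 to 0.27 and that of interferon-stimulated genes from -0.15 to 0.26 without single tumours. Genes called over the whole table were 0 by edgeR under every setting and by limma, and 440 by DESeq2. Of the 5 other p200 genes that passed the filter DESeq2 called 3, Ifi206, Ifi208 and Ifi213 (log2 fold changes 1.98, 1.501 and 1.82). It called 0 in the other pathway lists, of 16, 17, 17 and 21 genes tested, against 2.87% over the whole table. The other fits called 0 pathway list genes. Genes at an unadjusted p under 0.05 numbered 1825 with all tumours, 3469 when non-responsive replicate 1 was left out, 1144 when non-responsive replicate 3 was and 1185 when responsive replicate 3 was. The cause of these changes was not tested. Same-numbered tumours did not deviate together (correlation over genes of -0.11, -0.085 and -0.036 for numbers 1, 2 and 3), and no tumour correlated best with its own number. With the replicate block 0 genes were called and the members' median was 0.64. With 3 tumours a group, depth did not limit the members, at 182 counts or more in each tumour, but it did for Ifi214, Ifnb1 and Ifng.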

Other observations

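Ifi202b, Ifi205, Ifi209 and Aim2 differed more between tumours of the same group than between the groups. Ifi202b and Ifi205 were both highest in responsive replicate 1, at 312 and 82.0 CPM, where Aim2 was lowest at 8.23 CPM. In non-responsive replicate 1 Ifi202b was at 219 CPM and Aim2 at 12.3 CPM, the next lowest value. The other 4 tumours had Ifi202b at 36.4 to 117 CPM and Aim2 at 25.8 to 36.2 CPM. These values were singled out after they were seen, and the relation was not tested.

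Usp18, which encodes a protease that removes ISG15 and dampens type I interferon signalling, was at 51.8, 38.2 and 35.2 CPM in the non-responsive and 73.3, 77.6 and 56.9 CPM in the responsive tumours, without overlap (log2 fold change -0.73 ± 0.23, edgeR adjusted p = 0.360). Samhd1, a nucleotide hydrolase that limits cytosolic DNA, was at 235, 333 and 250 CPM against 156, 174 and 109.5 CPM, also without overlap (0.90 ± 0.26, edgeR adjusted p = 0.350). Ifit2 was at 23.5, 57.6 and 90.2 CPM against 23.4, 23.4 and 15.4 CPM, so that non-responsive replicate 1 was level with responsive replicates 1 and 2 (1.47 ± 0.47, edgeR adjusted p = 0.364). None of these genes passed, and all were chosen after their values were seen.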
